A study of Mus musculus with 2 samples.

Results

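Mir126a, Mir126b, Mir143, Mir145a and Mir145b are the microRNA genes that are best known from the cells of blood vessels, and they were taken by their GENCODE M21 symbols. All 5 are among the 2202 microRNA genes of the tables. The data are microRNA-seq libraries, made from RNA shorter than 30 bases, of left cerebral cortex from 5xFAD/CAST males that were adult, at 8 to 10 months. There is 1 group of 2 libraries, biological replicates 1 and 2. Their tissue samples are separate but are labelled with 1 donor identifier, so differences between them may be technical. The p-values between them weigh counting error alone and measure no spread between animals. The 5xFAD mouse carries human amyloid precursor protein and presenilin transgenes and deposits amyloid, and CAST stands for a wild-derived inbred strain. Whether the sampled animals carried the transgenes is not stated in the labels. No control mice were analysed here, so the results are levels and how far they differed between the 2 libraries.

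MicroRNAs are cut from hairpin precursors and guide repressor proteins to messenger RNAs, mostly through their seed, bases 2 to 8 of the mature strand. miR-126 is made in endothelial cells, the lining of vessels, from within the gene Egfl7, which encodes a secreted endothelial protein. It sustains the response of these cells to vascular endothelial growth factor by repressing inhibitors of that signal such as Spred1. miR-143 and miR-145 are made from neighbouring precursors in smooth muscle cells and pericytes, the mural cells around vessels, where they hold the contractile state, in part by repressing Klf4. In bulk cortex, fewer cells of a type and less RNA per cell cannot be told apart.

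Mir126a (ENSMUSG00000065540.1) lies on chromosome 2 of mm10, from 26591357 to 26591429 on the plus strand, and is 73 bases long. It falls in an intron of 8 and in an exon of 1 of the 19 annotated Egfl7 transcripts, and that exon belongs to a retained-intron transcript. Mir126b (ENSMUSG00000105799.1) occupies 26591363 to 26591420 on the minus strand and lies wholly inside Mir126a, over 58 bases. The sequences of the locus are shown because all of the strand results below turn on this arrangement. They come from RefSeq (GRCm38.p6), where both Mir126 genes have an entry, and each stands 5′ to 3′ with the listed mature sequences in capitals in the precursors and the seed in capitals in the mature sequences. Mature miR-126a-5p, from the other arm of the Mir126a precursor, is not shown.
Mir126a precursor: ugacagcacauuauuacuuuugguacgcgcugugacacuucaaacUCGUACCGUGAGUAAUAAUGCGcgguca
Mir126b precursor: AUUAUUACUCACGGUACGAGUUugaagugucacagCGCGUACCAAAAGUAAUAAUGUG
mmu-miR-126a-3p: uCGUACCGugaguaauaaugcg
mmu-miR-126b-3p: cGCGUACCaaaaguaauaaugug
mmu-miR-126b-5p: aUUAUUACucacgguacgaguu

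The Mir126b precursor is the exact reverse complement of bases 7 to 64 of the Mir126a precursor, counted from its 5′ end. The mature miR-126a-3p and miR-126b-5p overlap over 19 bases of the genome on opposite strands. The seeds of miR-126a-3p and miR-126b-3p share a run of 6 bases, shifted by 1 position, although the sequences come from opposite strands, and the whole sequences share a run of 10. None of the 3 seeds shown occurs at bases 2 to 8 of any other of the 1738 mouse mature microRNAs in the table.

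Mir143 (ENSMUSG00000065445.3, 63 bases) and Mir145a (ENSMUSG00000065592.2, 70 bases) both lie on the minus strand of chromosome 18 (mm10), at 61649196 to 61649258 and at 61647825 to 61647894, with 1301 bases between them. No annotated host gene overlaps either of them on either strand. The nearest gene to Mir143 is the long non-coding RNA gene Carmn on the same strand, 366 bases away. Mir145b (ENSMUSG00000098366.1, 75 bases) lies at 69022199 to 69022273 on the same strand, 7.37 Mb from Mir145a, so the 2 Mir145 genes do not overlap. Mir145a and Mir145b share a run of 17 bases. No stretch of 20 bases of Mir143, Mir145a or Mir145b occurs in another annotated microRNA precursor, and for both Mir126 genes the only such partner is the other one. Other parts of the genome were not searched.

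The depth was 16403925 reads in replicate 1 and 16991914 in replicate 2, of which 4929428 (30.1%) and 4441328 (26.1%) were assigned to a microRNA gene in the sense direction. Reads mapped to several places made up 38.5% and 33.0% of the 2 libraries and are in no gene count. Levels are sense counts scaled to 1000000 assigned reads of the library (CPM), so that 1 read is worth 0.203 CPM in replicate 1 and 0.225 CPM in replicate 2. A gene with at least 10 reads in each library is called detected, which holds for 417 genes and for 3 of the 5 members.

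Mir126a had the most reads of the 5 genes. It had 64730 reads in replicate 1 and 65788 in replicate 2, or 13131 and 14813 CPM, a mean of 13972 ± 1189 CPM (SD, n = 2). It took 1.31% of the assigned reads in replicate 1 (exact 95% binomial interval 1.30 to 1.32%) and 1.48% in replicate 2 (1.47 to 1.49%). These intervals cover counting error only. They treat the reads as independent molecules, which they are not, and so can be too narrow. Among all 2202 genes it ranked number 15 and number 12, and number 14 and number 11 when counts were divided by the length of the annotated gene. An endothelial microRNA gene thus stood among the 15 highest counts in both libraries of this cortex. Reads mapped to several places are in no gene count, so genes with copies can rank too low beside it.

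Mir143 was the next. It had 34642 and 29805 reads in replicates 1 and 2, or 7028 and 6711 CPM, a mean of 6869 ± 224 CPM (SD, n = 2), which placed it at ranks 28 and 31. Mir145a, its downstream neighbour, was far lower. It had 1275 and 1280 reads, or 259 and 288 CPM, a mean of 273 ± 20.9 CPM (SD, n = 2), at ranks 157 and 146. The order Mir126a, Mir143, Mir145a was the same in both libraries, and the lower of the 2 values of each gene lay above the higher value of the next. The median level over the 417 detected genes was 94.7 CPM, below all 3.

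Mir126b and Mir145b had no sense read in either library. The limit set by 3 reads is 0.609 CPM in replicate 1 and 0.675 CPM in replicate 2, so the levels of these 2 genes cannot be ordered. Against that limit of 3 reads per library, Mir126a was at least 21577-fold higher than Mir126b in replicate 1 and at least 21929-fold higher in replicate 2. Mir145a was at least 425-fold and 427-fold higher than Mir145b. Of the 2202 genes, 1436 had no read in either library, so these 2 members share that state with most annotated microRNA genes.

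**Figure D1:**
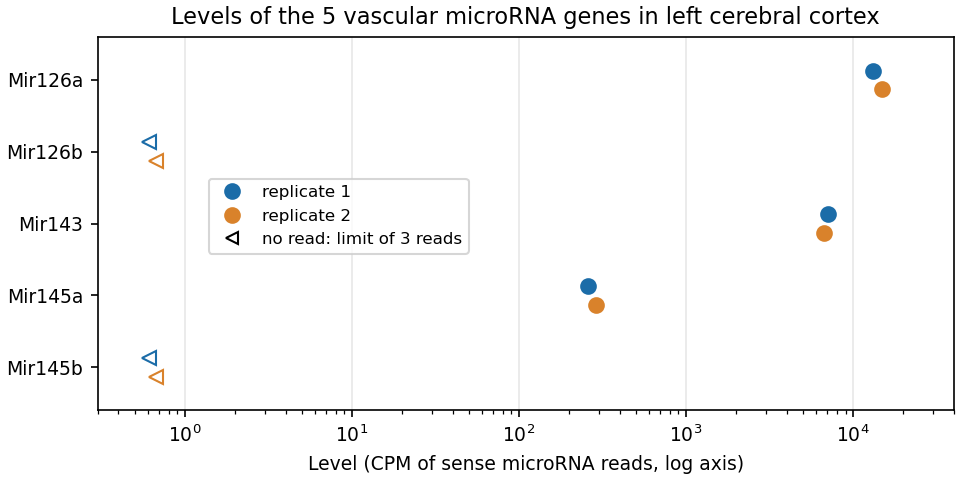
Level of each of the 5 genes (CPM, log axis) in replicate 1 (blue) and replicate 2 (orange). Open triangles mark the limit of 3 reads for the 2 genes without a read. The points of each gene lie close together, and Mir126a, Mir143 and Mir145a stand apart from one another at means of 13972, 6869 and 273 CPM.

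The reads of the Mir126 locus came from the Mir126a strand. In the sense column Mir126a held 64730 reads in replicate 1 and 65788 in replicate 2, with 0 of each in the antisense column. By the limit of 3 reads, that allows an antisense share of up to 0.00463% and 0.00456%. Mir126b gave the reverse picture, with no sense read and with 64726 and 65785 antisense reads. These antisense reads are the Mir126a reads seen from the other strand, since all but 4 and 3 of the Mir126a reads touch the stretch that both genes occupy. Counts are given per precursor, so its 2 arms are not told apart.

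When strand is ignored, Mir126a is nearly erased from the table. The column without regard to strand listed 4 reads for Mir126a in replicate 1 and 3 in replicate 2, and none for Mir126b, while reads that overlap genes on both strands are kept in the ambiguous total of that column. The locus alone accounted for 18.5% of all ambiguous reads in replicate 1 and 20.6% in replicate 2. Mir143 and Mir145a have no partner on the other strand and had the same counts in both columns, with 0 antisense reads each. By the limit of 3 reads, Mir143 can have an antisense share of up to 0.00866% and 0.0101%. For Mir145a that share is up to 0.235% and 0.234%. Over all genes outside overlapping pairs, antisense reads were 0.00393% and 0.00403% of the sum of both strands.

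**Figure D2:**
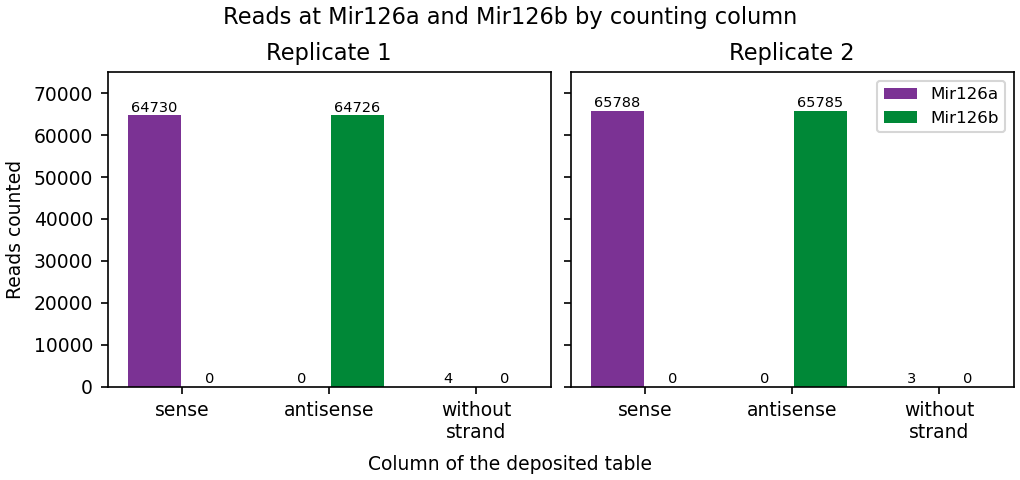
Reads counted at Mir126a (purple) and Mir126b (green) in the sense column, the antisense column and the column without strand, one panel per library. The sense bars of Mir126a and the antisense bars of Mir126b are within 4 reads of each other, and without strand 4 and 3 reads are left.

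The same one-sided pattern was common among overlapping genes. The annotation holds 32 pairs of microRNA genes that overlap on opposite strands, and 27 of them had at least 10 sense reads in each library. In 17 of the 27, the Mir126 pair among them, 1 strand had no read in either library, and in only 2 did the weaker strand reach 1% in both. By reads, the Mir126 pair came second of the 32. Mirlet7e, opposite Gm25927, had 135683 and 136443 reads, Mir191, opposite Gm24083, had 46938 and 37767, and Mir30e, opposite Mir30f, had 23341 and 13226. The opposite gene had no sense read in any of these pairs.

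The 3 detected members were at most 1.20-fold apart between the libraries under each scaling tried, and which of them were closest depended on the scaling. Each detected gene was compared between the libraries by an exact binomial test, two-sided and with the library totals given, and p-values were adjusted over all 417 by Benjamini-Hochberg. Of these genes 247 (59.2%) differed between the libraries, and 47 (11.3%) also differed at least 2-fold. Of the genes tested 34.5% were higher and 24.7% lower in replicate 1. Scaling to all reads of the library, with the unassigned ones, raises every log2 ratio by 0.20, and 47.2% were then higher and 17.5% lower. The test sets 1 library against the other, not conditions, and it weighs counting error alone. All 3 members passed it and none was 2-fold apart. At the depth of Mir126a and Mir143, the test passes very small gaps.

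Mir126a was 1.13-fold lower in replicate 1 than in replicate 2 (log2 ratio -0.17, interval -0.19 to -0.16, adjusted p = 4.06e-104, exact binomial test), and its log2 ratio turned to 0.03 (adjusted p = 0.00108, exact binomial test) when scaled to all reads of the library. Mir145a was 1.11-fold lower in replicate 1 (log2 ratio -0.16, interval -0.27 to -0.04, adjusted p = 0.0113, exact binomial test), and the log2 ratio turned to 0.05 (adjusted p = 0.535, exact binomial test) with the same scaling. Mir143 was 1.05-fold higher in replicate 1 (log2 ratio 0.07, interval 0.04 to 0.09, adjusted p = 1.40e-08, exact binomial test), and did not pass with TMM scaling, at 0.02 (adjusted p = 0.153, exact binomial test). Scaled to all reads, Mir143 was 1.20-fold higher in replicate 1 (log2 ratio 0.27, interval 0.25 to 0.29, adjusted p = 1.32e-121, exact binomial test).

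Across the 417 genes, the median gene was 1.29-fold apart and its coefficient of variation over the 2 libraries was 18.2%. That of Mir126a was 8.51%, that of Mir145a 7.64% and that of Mir143 3.26%. A closer match between the libraries than that of Mir126a was found in 120 genes (28.8%). For Mir145a there were 107 such genes (25.7%) and for Mir143 there were 44 (10.6%). Scaling to all reads reversed this order, with coefficients of variation of 1.34% for Mir126a, 2.21% for Mir145a and 13.1% for Mir143, and with 8, 18 and 135 genes that matched more closely. Among the 96 genes with a mean of at least 1000 CPM, the median was 1.27-fold.

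**Figure D3:**
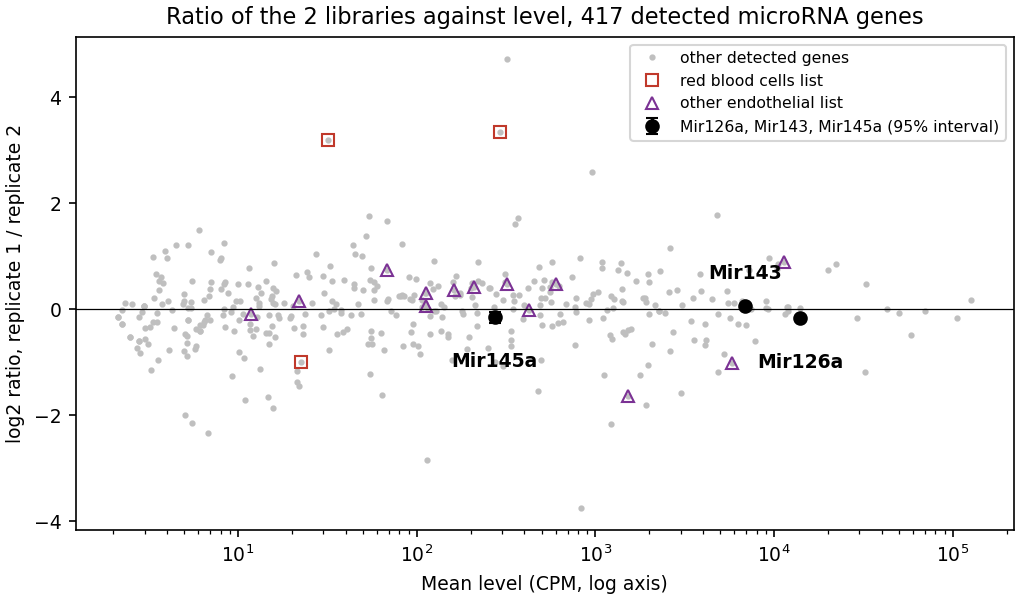
Log2 ratio of replicate 1 to replicate 2 against mean level (CPM, log axis) for the 417 detected genes, with exact 95% intervals for Mir126a, Mir143 and Mir145a (black). The 3 genes lie between -0.17 and 0.07. Of the red blood cell list (squares), Mir451a and Mir144 lie above 3, while Mir486 lies at -0.996. Of the endothelial list (triangles), Mir222 lies at -1.65 and Mir23a at 0.89. By the binomial test 7 of the 13 detected endothelial genes were higher in replicate 1 and 2 were lower. Of all detected genes 34.5% were higher and 24.7% lower.

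Relative to each other the members shifted slightly. There were 1.87 reads of Mir126a for each read of Mir143 in replicate 1 (exact 95% interval 1.84 to 1.89) and 2.21 in replicate 2 (2.18 to 2.24), a mean of 2.04 ± 0.240 (SD, n = 2). Per base of annotated gene these were 1.61 and 1.90. The endothelial gene thus had more reads than Mir143 in both libraries, and the intervals of the 2 libraries do not overlap. How evenly different microRNAs are captured as reads was not measured, so such ratios describe reads and not molecules. Mir126a to Mir145a stood at 50.8 (48.0 to 53.7) and 51.4 (48.6 to 54.4), where the intervals overlap. The 5 genes together took 2.04% of the assigned reads in replicate 1 (2.03 to 2.05%) and 2.18% in replicate 2 (2.17 to 2.19%), and Mir126a made up 64.3% and 67.9% of that sum.

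The neighbours Mir143 and Mir145a were counted at very unequal levels. Mir143 had 27.2 reads for each read of Mir145a in replicate 1 (exact 95% interval 25.7 to 28.8) and 23.3 in replicate 2 (22.0 to 24.6), a mean of 25.2 ± 2.75 (SD, n = 2), and per base of annotated gene 30.2 and 25.9. The intervals of the 2 libraries do not overlap. Both genes sit on 1 strand with Mir143 upstream, and neither shares a stretch of 20 bases with another precursor.

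Unequal neighbours were frequent in this cortex. Of 107 pairs of detected genes that follow each other on 1 strand within 10 kb, 27 (25.2%) were further apart in mean CPM than Mir143 and Mir145a. Genes that were not detected were passed over, so neighbours made very unequal by such a gene are missing from this share. The median ratio of the higher to the lower gene was 7.12, with quartiles of 2.52 and 25.6, and the widest, Mir29a over Mir29b-1, was 257. The upstream gene was the higher in 58 of the 107 pairs. The ratio of Mir143 to Mir145a moved by 0.22 on the log2 scale between the libraries, against a median of 0.41 over the pairs, and 31 pairs moved less. Pairs that share a gene are not independent, and pairs with copies elsewhere in the genome can lose reads that map to several places.

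**Figure D4:**
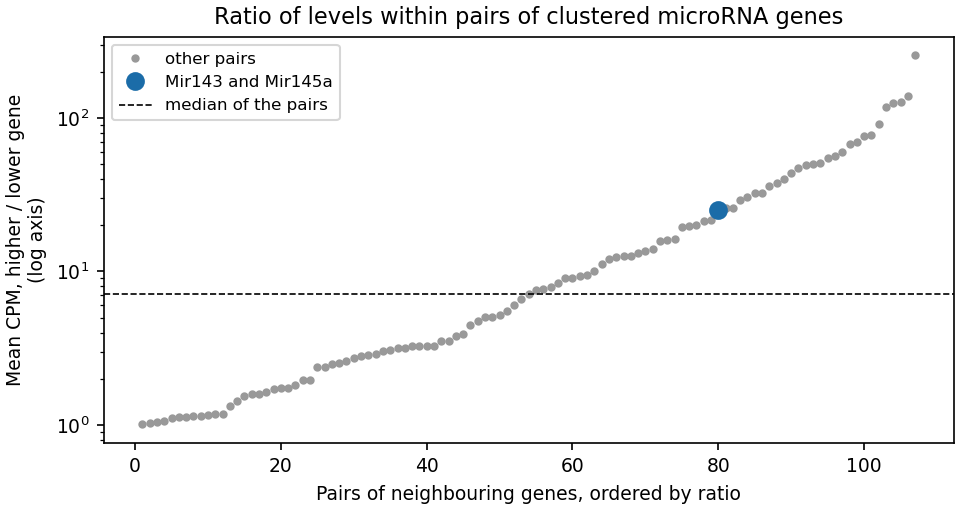
Ratio of the mean CPM of the higher to that of the lower gene (log axis) for the 107 pairs of neighbouring detected genes, ordered by ratio. Mir143 and Mir145a (blue) lie above the median of 7.12 (dashed line) and have 27 wider pairs above them.

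For each detected member the 3 genes nearest in level were found by the distance of log2(CPM + 1) over the 2 libraries. For Mir126a they were Mir29a at 14129 and 13906 CPM, Mir151 at 11841 and 12116 CPM and Mir328 at 12248 and 11825 CPM, at distances of 0.14, 0.33 and 0.34. Mir29a, a microRNA known from astrocytes and neurons, was above Mir126a in replicate 1 and below it in replicate 2. For Mir143 the nearest were Mir149 (0.07), Mir324 (0.10) and Mir30d (0.16). For Mir145a they were Mir664 (0.07), Mir384 (0.14) and Mirlet7a-2 (0.32). With 2 libraries such likeness is one of level and not of a pattern across conditions.

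Other microRNAs known from endothelium were read as a list of 15 genes, of which 13 were detected. The list summed to 21627 and 19863 CPM in replicates 1 and 2, about as much as the 5 vascular genes, at 20418 and 21812 CPM. No gene of the list reached the mean level of Mir126a, although Mir23a lay above it in replicate 1. Its most abundant members were Mir23a at 14768 and 7993 CPM, Mir221 at 3842 and 7748 CPM and Mir222 at 737 and 2310 CPM, the last pair being regulators of the stem cell factor receptor Kit. Mir23a was higher in replicate 1 (log2 ratio 0.89, interval 0.87 to 0.90), and Mir221 and Mir222 were lower, at -1.01 (-1.04 to -0.99) and -1.65 (-1.70 to -1.59). By the binomial test 7 of the 13 were higher in replicate 1 and 2 were lower there, beside 34.5% and 24.7% of all detected genes. Scaled to all reads, 9 of the 13 were higher and 2 lower, beside 47.2% and 17.5% of all detected genes. A gap of at least 2-fold was found for Mir221 and Mir222, 2 of the 13, beside 11.3% of all detected genes. These genes are made in many other cells too, and 5 of the 15 share a stretch of 20 bases with another precursor.

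Genes known from smooth muscle, pericytes and fibroblasts, beside Mir143 and the Mir145 genes, were read as a list of 12. Of these genes 5 were detected, and the list summed to 1710 and 4714 CPM in replicates 1 and 2. Most of it was Mir21a, which is also induced in other cells by injury, at 1518 and 4526 CPM (log2 ratio -1.58, interval -1.61 to -1.54). Mir214, of fibroblasts and mural cells, stood at 48.9 and 83.1 CPM, and Mir10a at 70.4 and 41.0 CPM. By the binomial test 2 of the 5 were higher and 2 lower in replicate 1, beside 34.5% and 24.7% of all detected genes. Mir133a-1, Mir133a-2, Mir1a-1 and Mir199a-1 had no read, but each shares a stretch of 20 bases with other precursors, so their counts can miss reads that map to several places.

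Among red blood cell microRNAs, Mir451a and Mir144 were far higher in replicate 1, while Mir486 was lower there. Of the red blood cell list, 4 of 5 symbols are annotated and 3 were detected. The list summed to 602 and 88.5 CPM in replicates 1 and 2, a ratio of 6.81. Mir451a, which abounds in red blood cells, had 529 and 52.2 CPM (log2 ratio 3.34, interval 3.15 to 3.54). Mir144, made beside it, had 57.8 and 6.30 CPM, and Mir486 had 15.0 and 29.9 CPM, while Mir451b had no read. Mir486 shares a stretch of 20 bases with Mir3107, and Mir451a with Mir451b, each partner overlapping on the other strand. Whether the counts of Mir486 and Mir451a miss reads that map to several places was not tested. Over the same 2 libraries the sum of the 5 vascular genes had a ratio of 0.936. Both ratios depend on the scaling, since scaling to all reads raises every log2 ratio by 0.20. The part of blood cells in the levels of the vascular genes was not tested, and miR-126 is also known from platelets and blood stem cells. Of the 6 detected genes of the leukocyte and microglia list, 2 were higher and 2 lower in replicate 1 by the binomial test, beside 34.5% and 24.7% of all detected genes. Mir150 was higher (log2 ratio 0.30) and so was Mir155 (0.31), while Mir146 (-0.67) and Mir342 (-0.08) were lower, with adjusted p = 8.59e-22, 0.00112, 4.55e-84 and 0.000143 (exact binomial test). Mir223 stood at 9.33 and 10.8 CPM and Mir142 at 132 and 145 CPM, neither passing the test (adjusted p = 0.643 and 0.119, exact binomial test).

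**Figure D5:**
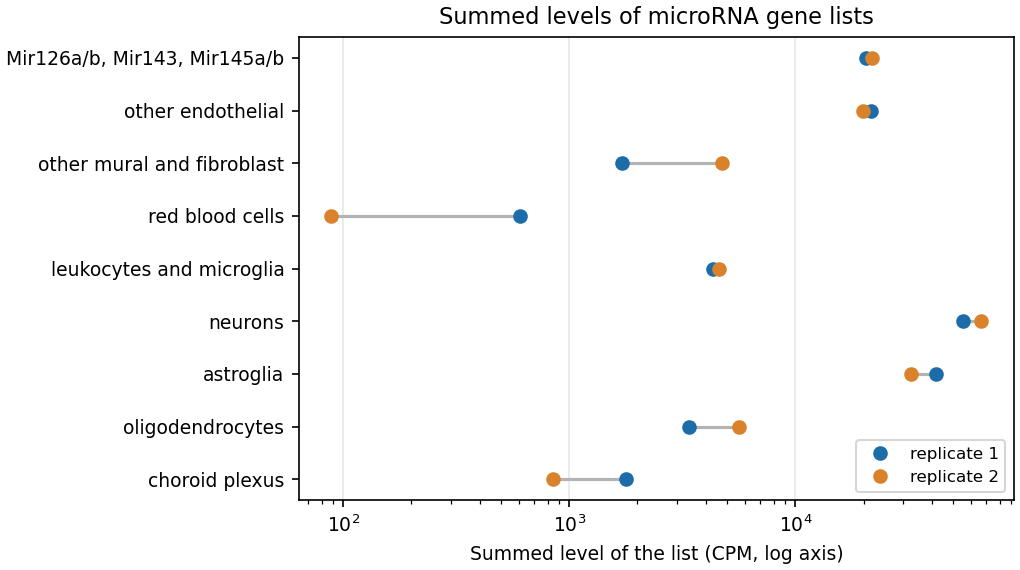
Summed level (CPM, log axis) of the 5 vascular genes and of each of 8 other lists in replicate 1 (blue) and replicate 2 (orange). The 5 vascular genes sum to 20418 and 21812 CPM, with points nearly on each other, while the red blood cell list spans 602 to 88.5 CPM.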

How the data were processed

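MicroRNA-seq counts of 2 libraries of left cerebral cortex were analysed. The deposited tables hold raw read counts for 2202 microRNA genes in 3 columns (without regard to strand, sense, antisense), made against mm10 and GENCODE M21, per the notes deposited with the files. Which aligner and counter were used is not given in the sources used here, and the strand of the columns is read from their layout. Any step that drops reads mapping to several places lowers genes with copies, and mismatches of CAST reads to the reference were not measured. All 2202 identifiers were found in the annotation.

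From these counts, CPM was computed over the sense counts of all genes, without the unassigned totals. Values are the mean ± SD of 2 libraries. Libraries were compared with an exact binomial test and exact Clopper-Pearson 95% intervals in SciPy 1.17.1, with Benjamini-Hochberg adjustment over genes with at least 10 counts in each library and a threshold of 0.05. Alternatives were TMM factors (edgeR 4.0.16), DESeq2 1.42.0 size factors, all reads as the total, the column without strand, pseudocounts, other filters and leaving out a library. All reads as the total for the counts of called genes, for the lists and for the coefficients of variation was added after seeing the data.

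The members, the 9 lists and the rules were chosen with earlier results of these data known. Named are the 5 members, the 3 genes nearest in level to each detected member, the 3 most abundant genes of each list (every detected one for red blood cells and choroid plexus) and the 3 other opposite-strand pairs with most reads. Others were chosen after their values were seen.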

Additional observations from a re-analysis of the deposited data

How the results depend on the processing

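With the column without strand, the mean of Mir126a became 0.801 CPM, that of Mir143 7397 CPM and that of Mir145a 294 CPM, the ratio of Mir126a to Mir143 became 0.000108 and the 5 genes took 0.769% of the reads. Mir126a then has under 10 reads in each library and no ratio between them was computed. Scaled to all reads, the means were 3909, 1933 and 76.5 CPM, and the log2 ratio of replicate 1 to replicate 2 turned to 0.0274 for Mir126a and to 0.0452 for Mir145a. With TMM factors that of Mir143 was 0.0189 and no longer passed. Per base of annotated gene, Mir126a to Mir143 was 1.76 and Mir143 to Mir145a was 28.0. The other 52 values recomputed counted as unchanged. Those that are not counts of called genes kept their direction and side of the threshold, or moved by less than the spread between libraries. Many of them could not have come out otherwise. Leaving out a library cannot move a mean of 2 libraries beyond their SD, and Mir126b and Mir145b had no read under any setting. The counts of called genes were judged by their number alone, and the share of tested genes that they make up changed with the filter. Beside 247 of 417 genes in the main setting, 218 of 270 differed with a stricter filter and 275 of 766 with a looser one. Scaled to all reads, a setting added after seeing the data, 270 of 417 differed. The share of calls that were higher in replicate 1 was then 73.0%, against 58.3%. Ratios and calls between the libraries need both, so leaving out a library gives none. No paired analysis was possible because there is 1 group. By the limit of 3 reads used here, depth only places Mir126b and Mir145b under that limit. For the deep members the spread of 2 libraries, not the counts, sets the precision.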

Other observations

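The microRNAs of the other cell types of cortex moved between the libraries in both directions. In replicates 1 and 2 the list for neurons summed to 55306 and 66384 CPM, led by the activity-regulated Mir132 at 19682 and 44698 CPM, ahead of Mir128-1 at 13556 and 7493 CPM and Mir137 at 12338 and 6351 CPM. The astroglial list summed to 41855 and 32431 CPM, with Mir23b at 25038 and 14908 CPM, Mir29a, and Mir29c at 1326 and 1730 CPM. The oligodendrocyte list summed to 3393 and 5622 CPM, with Mir338 at 2323 and 3117 CPM and Mir219a-2 at 1064 and 2501 CPM, ahead of Mir219a-1 with 27 and 20 reads. In mean CPM, Mir132, Mir23b and Mir29a were the only genes of the 8 other lists above Mir126a. This order is limited by copies. A run of 20 bases in common with another precursor was found for 7 of 10 neuronal, 6 of 7 astroglial and 4 of 4 oligodendrocyte genes. Such counts can miss reads that map to several places, so these genes can stand too low. Mir124a-1, Mir124a-2 and Mir124a-3 of the neuron list, which have such runs, had means of 3.48, 1.70 and 0.304 CPM.

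The leukocyte and microglia list summed to 4319 and 4593 CPM, led by Mir342 at 2384 and 2514 CPM, Mir150 at 1073 and 874 CPM and Mir146 at 596 and 949 CPM. The choroid plexus list, which marks the vessel-rich tissue of the ventricles, summed to 1783 and 844 CPM. Its 5 members were all detected, at 1084 and 553 CPM for Mir204, 566 and 173 CPM for Mir1298, 60.9 and 53.8 CPM for Mir211, 41.8 and 23.6 CPM for Mir448 and 30.0 and 41.4 CPM for Mir449a. By the binomial test 3 of the 5 were higher and 1 lower in replicate 1, beside 34.5% and 24.7% of all detected genes. Scaled to all reads, 4 were higher and 0 lower, beside 47.2% and 17.5% of all detected genes. The part of choroid plexus in the levels of the vascular genes was not tested.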
